A study of Mus musculus with 35 samples.

Results

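Among the 52636 genes listed in each count file, 6 were described here: Wdfy1, Ide, Fgfbp3, Nnt, Entpd4 and Cyfip2. They were chosen by symbol, as genes named for alterations of the C57BL/6J substrain, and not by their counts. Earlier results of these data were known at the choice. The paper lists Wdfy1 among the genes that differ between these strains, so its calls here are no independent test. Each symbol was mapped to its Ensembl gene identifier in the files. RNA had been taken by laser capture from the anterior and posterior portions of the basolateral amygdala of female mice that completed a touchscreen test of cognitive judgment bias. The 35 libraries analysed here came from 19 mice, and 16 mice gave both portions. The paper had more anterior samples in enriched housing, in both strains, so that comparison rests on fewer mice here.

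The C57BL/6J strain is an inbred line, represented by 8 mice. B6D2F1N mice, of which there were 11, are by their name first-generation hybrids of a C57BL/6 and a DBA/2 parent, so each carries 1 C57BL/6 copy of every autosome. The substrain of that C57BL/6 parent is not given in the labels. Mice of both strains lived either in the control environment, called standard housing here, or in an enriched one, with access to a playground for 1 h per day from postnatal day 77. All of them were trained on the touchscreen from postnatal day 70, for 37 to 90 days, and were food restricted. Every group thus shared training, testing and food restriction, but not the length of training, which followed each mouse's learning speed. In the paper C57BL/6J mice took longer to learn and were older, differences that were not significant there. The fits here were not adjusted for age or training length, so their part in a strain difference was not tested. The anterior portion had 4 standard and 2 enriched C57BL/6J libraries, and 5 standard and 5 enriched B6D2F1N libraries. The posterior portion had 4 and 4 C57BL/6J libraries, and 5 and 6 B6D2F1N libraries. The portions carry the names that the labels give. The study's methods state bregma coordinates for them in an order that puts the posterior portion nearer the front, so which portion lay in front is not certain, and the direction of each difference between portions holds for the labelled names only. Mice were numbered within a strain and housing, and a number does not pair mice of different groups.

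C57BL/6J mice have been bred apart from C57BL/6N and other lines for many generations, and a few genes differ between the sister lines by deletions or extra copies. Nnt, the mitochondrial transhydrogenase that makes NADPH from the proton gradient, lacks a block of exons in C57BL/6J. Ide, which degrades insulin and amyloid peptides, and Fgfbp3, a secreted carrier of fibroblast growth factors, lie in a stretch of chromosome 19 that has been described as copied in C57BL/6J. Wdfy1, an endosomal protein with WD40 and FYVE domains that assists Toll-like receptor signalling, and Entpd4, a nucleotide diphosphatase of the Golgi and lysosome, are also listed as copy-number variants. Cyfip2, a subunit of the WAVE actin-regulating complex that binds FMRP, stands apart in this group. Its known substrain variant is a changed amino acid in C57BL/6N, not a deletion or extra copy in C57BL/6J.

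The genes lie in the GRCm38 build as annotated by GENCODE M21. Wdfy1 (ENSMUSG00000073643) is on the minus strand at chr1:79702262-79776143, and Ide (ENSMUSG00000056999) on the minus strand at chr19:37268743-37337852. Fgfbp3 (ENSMUSG00000047632) lies on the same chromosome and strand at chr19:36917550-36919615. Nnt (ENSMUSG00000025453) is on the minus strand at chr13:119335448-119408997, and Cyfip2 (ENSMUSG00000020340) on the minus strand at chr11:46193850-46312859. The annotation also holds a second Nnt model, ENSMUSG00000116207, at chr13:119335528-119408952, which the count files do not list. Entpd4 (ENSMUSG00000095463) is on the plus strand at chr14:69337174-69367270. The build is the genome of a C57BL/6J mouse. Exons that C57BL/6J lacks are therefore not in it, and reads from them had no place to align. The hybrids also carry copies from a parent strain that the build does not represent. Whether reads of those copies aligned less often, lowering the hybrid counts of a gene, was not tested.

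Entpd4 had 0 counts in all 35 libraries, and its measurement cannot be separated from that of a second gene model. This model, Entpd4b (ENSMUSG00000022066), is at chr14:69555424-69585520 on the same strand and begins 218250 bases after Entpd4. The transcripts compared are 3589 bases long in both, with 13 exons and 1839 coding bases, and 0 bases differ between them. A stretch of coding exon 10 as long as a read of this study (72 bases) is printed from both models to show what the aligner had to place. It lies at chr14:69361639-69361710 in Entpd4 and at chr14:69579889-69579960 in Entpd4b, on the plus strand of GRCm38. No base is in capitals because none differs.
Entpd4: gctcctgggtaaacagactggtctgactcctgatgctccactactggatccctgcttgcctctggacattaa
Entpd4b: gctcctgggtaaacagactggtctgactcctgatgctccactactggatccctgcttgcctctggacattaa

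Every one of the 3518 windows of 72 bases in the Entpd4 transcript, 100%, was found unchanged in Entpd4b. Models that overlap these genes on the other strand held some of them as well, Gm16867 1187 of the windows. In each library 6.23% to 10.9% of the reads that HTSeq handled were listed as placed more than once and were assigned to no gene. Entpd4b itself had 13 counts in all, spread over 7 libraries with 5 at most in any of them. A library with 3 counts corresponds to 0.1097 to 0.177 CPM (counts scaled to a common library total, here from the raw totals). That is the limit that a count of 0 allows at these depths for a gene whose reads are placed once. It sets no limit for Entpd4, whose windows all occur in Entpd4b. The counts of 0 can therefore not be read as absence of expression in either strain, and Entpd4 entered no test. For the other members, 0 windows of Nnt, Ide, Fgfbp3 and Cyfip2 and 1.12% of those of Wdfy1 occurred in another gene's transcript with at most 2 mismatches. Those windows of Wdfy1 matched parts of 303 genes, and none matched without a mismatch.

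The libraries held 16938534 to 27352623 counts assigned to genes, with a median of 21409708, and 0 pairs of libraries were identical. Outside the 6 genes, 56 genes passed the test in both standard-housing strain comparisons. The level of each enriched C57BL/6J library lay nearer the standard C57BL/6J mean for 55 or 56 of them, and that of each enriched B6D2F1N library nearer the B6D2F1N mean for 53 to 56, so the strain labels of the enriched libraries held. Mouse 1 of the standard B6D2F1N group had 0 counts of Xist in both portions, while all other libraries had at least 1191, although the labels give every mouse as female. The strain values of Wdfy1, Ide, Nnt and Fgfbp3 in standard housing are given with and without it. Markers of excitatory and inhibitory neurons, oligodendrocytes, astrocytes, microglia and endothelial cells were all detected, so the bulk tissue held more than neurons. In such samples fewer cells of a type and less RNA per cell cannot be told apart.

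The strains were compared within each portion and housing with edgeR, the question being how genetic background changes the amygdala transcriptome. A log2 fold change is B6D2F1N minus C57BL/6J, and a gene was called at an adjusted p of at most 0.05 over all genes tested. Of the 5 members tested, Wdfy1 and Ide were called in both standard-housing comparisons. Over all genes, 0.370% were called in the anterior and 0.373% in the posterior portion. In the enriched posterior portion Wdfy1 was the only member called, beside 0.394% of all genes, and in the enriched anterior portion, with 2 C57BL/6J mice, 0 of 5 members were called beside 0.0639% of all genes. The median log2 fold change of the 5 members was -0.25 and -0.57 in the standard anterior and posterior portions, beside 0.02 and 0.05 for all genes. It was 0.23 and -0.33 in the enriched anterior and posterior portions, beside 0.03 for all genes in both.

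**Figure D1:**
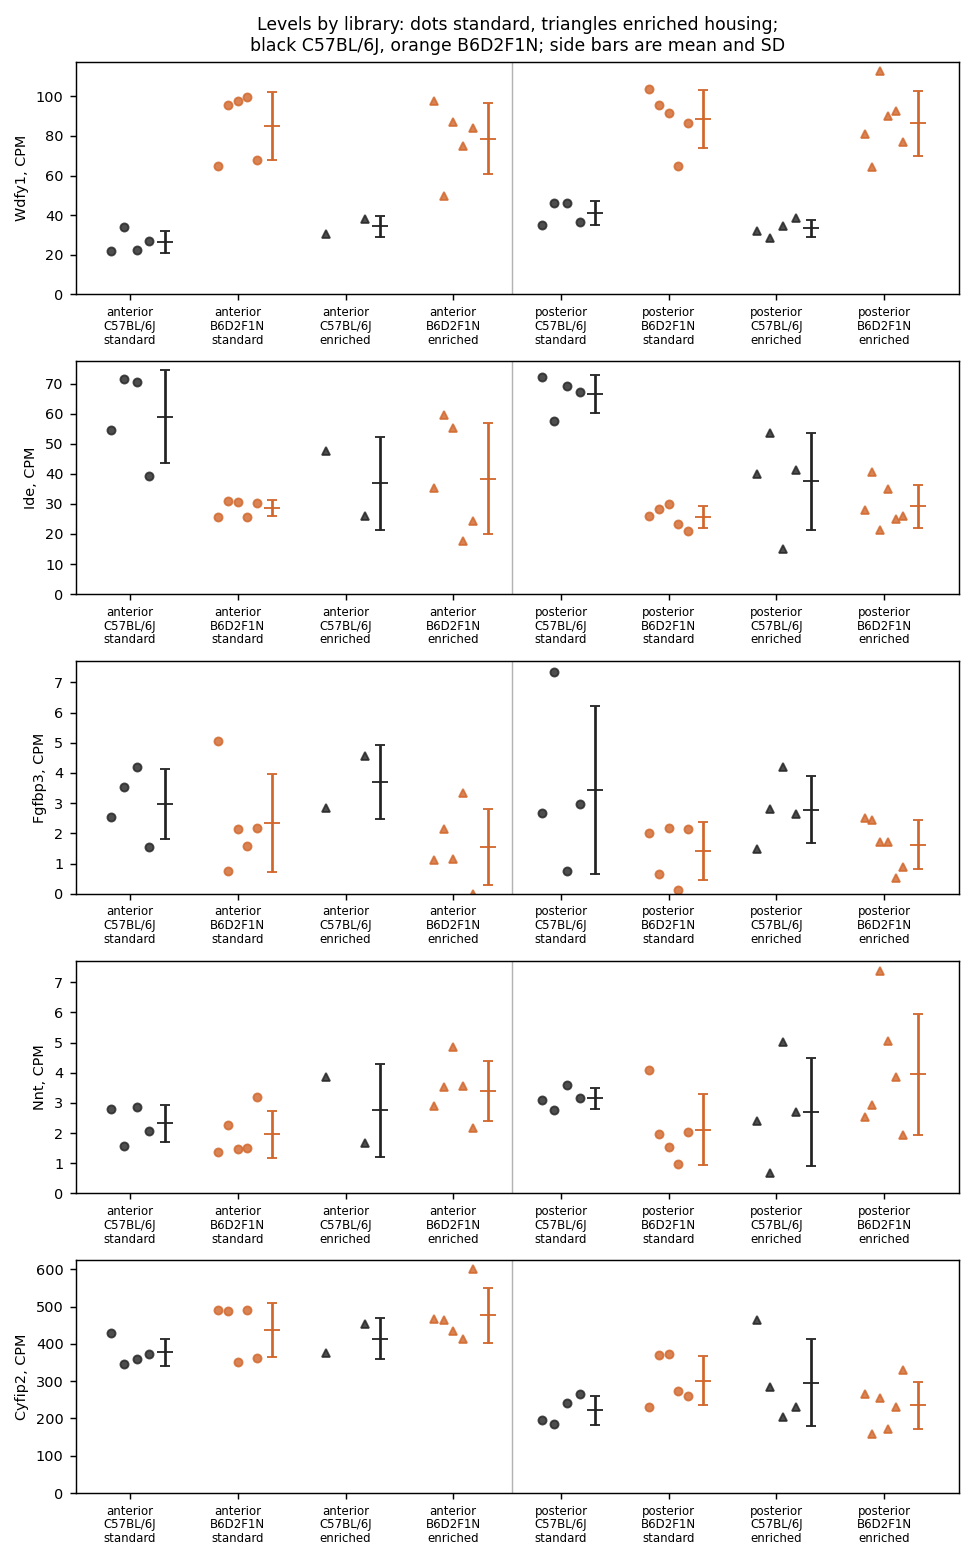
Level of each detected member in CPM (y axis) for every library in the 8 groups of portion, strain and housing (x axis), with the mean and SD beside the points. The B6D2F1N points of Wdfy1, from 49.8 to 113 CPM, lie above all C57BL/6J points, while Ide separates the strains in standard housing only, and the points of Fgfbp3, Nnt and Cyfip2 overlap.

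Wdfy1 was higher in B6D2F1N mice, by a factor of 2.18 to 3.24 in the 4 comparisons of 1 housing and portion, and 3 of these passed the test. In the anterior portion in standard housing the 4 C57BL/6J mice had 21.9, 34.0, 22.6 and 27.2 CPM. The 5 B6D2F1N mice had 64.9, 95.4, 97.4, 99.7 and 68.05 CPM. Each B6D2F1N library was therefore above each C57BL/6J library, and the fitted difference was 1.70 on the log2 scale (95% interval 1.25 to 2.15, standard error 0.21, adjusted p = 0.000678 in edgeR). In the posterior portion of the same housing the C57BL/6J values were 35.0, 46.3, 45.9 and 36.4 CPM. The B6D2F1N values were 103.8, 95.6, 91.4, 65.0 and 86.5 CPM. The groups were again apart, at a log2 difference of 1.13 (95% interval 0.69 to 1.56, standard error 0.20, adjusted p = 0.0237 in edgeR).

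This posterior call depended on single mice. It held without B6D2F1N mouse 1 (log2 fold change 1.07, adjusted p = 0.0349) or mouse 4 (1.22, adjusted p = 0.0123), and was lost without any other single mouse of the 9, with adjusted p from 0.0518 to 0.113 and log2 fold changes from 1.05 to 1.196. The anterior call in standard housing held without each of the 9 mice in turn, with adjusted p from 0.000545 to 0.00556. Without B6D2F1N mouse 1, which lacked Xist counts, the anterior value was 1.79.

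In enriched housing the strains were apart as well. The 2 anterior C57BL/6J libraries had 30.7 and 37.9 CPM. The 5 B6D2F1N libraries had 97.4, 49.8, 86.9, 74.9 and 83.9 CPM. Here the groups did not overlap, but the log2 fold change of 1.22 (standard error 0.31, 95% interval 0.54 to 1.91) missed the threshold with an edgeR adjusted p of 0.729. DESeq2 called it with an adjusted p of 0.0263, and the paper, with more libraries, also lists it as differing there. In the posterior portion the C57BL/6J mice had 32.0, 28.5, 34.6 and 38.4 CPM. The 6 B6D2F1N mice ranged from 64.3 to 113 CPM with a median of 85.7, so the lowest of them was above the highest C57BL/6J mouse. They differed by 1.38 on the log2 scale (95% interval 0.96 to 1.81, standard error 0.20, adjusted p = 0.00227 in edgeR), and the call was lost when the 3 enriched mice without an anterior library were left out (1.39, adjusted p = 0.155).

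Over all 35 libraries, which came from 19 mice, all 21 B6D2F1N libraries were above the highest of the 14 C57BL/6J libraries, 46.3 CPM. The share of all genes separated in this way over the pooled libraries was not computed. Within 1 portion and housing, groups without overlap and with B6D2F1N above were found for 2.04% (anterior) and 2.10% (posterior) of genes in standard housing. In enriched housing the shares were 3.16% and 1.45%. With both housings in 1 fit, Wdfy1 differed by 1.51 on the log2 scale in the anterior portion (SE 0.18, adjusted p = 3.43e-05 in edgeR) and by 1.25 in the posterior one (SE 0.13, adjusted p = 1.37e-06). In those fits 0.615% and 0.858% of all genes were called. Both calls held without each mouse in turn, and without B6D2F1N mouse 1 of standard housing the values were 1.54 and 1.23. The difference between the housings in the strain effect was not called, at -0.48 (95% interval -1.21 to 0.24) in the anterior and 0.26 (95% interval -0.27 to 0.80) in the posterior portion on the log2 scale.

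Wdfy1 shares its place with Mrpl44, a mitochondrial ribosomal protein gene on the other strand. The strand setting of the counting is not given in the sources used here, so reads where the genes overlap could have gone to either or to none. Mrpl44 had mean levels between 19.3 and 29.8 CPM in the 8 groups. Its B6D2F1N mean was below the C57BL/6J mean in every portion and housing, the opposite order to Wdfy1, and it was not called in a strain comparison. Among 10 tested genes within 500 kb of Wdfy1, 0 were called in the strain comparison over both housings in either portion. Beside 0.615% and 0.858% of all genes, this count is no result about them.

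**Figure D2:**
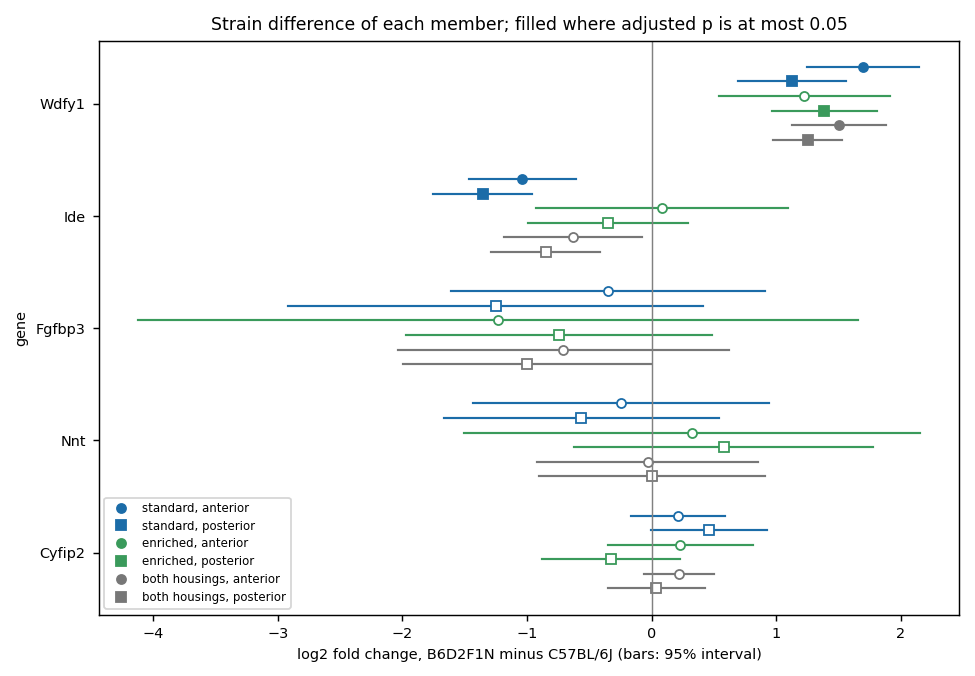
Strain difference of each tested member on the log2 scale (x axis, B6D2F1N minus C57BL/6J) with its 95% interval, for each portion and housing and for both housings together. All Wdfy1 intervals lie above 0, the standard-housing intervals of Ide lie below 0, and those of Nnt include 0 in every comparison.

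Ide was higher in C57BL/6J mice in both portions in standard housing, and no strain difference of it was called in enriched housing. In the standard anterior portion the C57BL/6J mice had 54.7, 71.7, 70.7 and 39.2 CPM. The 5 B6D2F1N mice had 25.8, 31.1, 30.6, 25.7 and 30.2 CPM, a narrow range that the lowest C57BL/6J mouse exceeded. In edgeR the log2 value was -1.04 (95% interval -1.47 to -0.61, standard error 0.20, adjusted p = 0.0349), which is 2.05 times higher in C57BL/6J. This call held without C57BL/6J mouse 4, the lowest of its group (-1.19, adjusted p = 0.0168). It was lost without any other single mouse of the 9, with adjusted p from 0.0533 to 0.1804, and without the B6D2F1N mouse lacking Xist counts the value was -0.99 (adjusted p = 0.0841). It was also lost when all 4 groups of the portion were fitted together (-1.03, adjusted p = 0.356).

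In the posterior portion in standard housing the ranges lay further apart. The C57BL/6J mice had 72.2, 57.7, 69.1 and 67.1 CPM. The B6D2F1N mice had 25.9, 28.2, 30.1, 23.4 and 21.1 CPM. Every C57BL/6J mouse thus had at least 57.7 CPM and no B6D2F1N mouse more than 30.1 CPM. On the log2 scale the difference was -1.36 (95% interval -1.75 to -0.96), and it was called without each of the 9 mice in turn, with adjusted p from 0.0048 to 0.0153. Without the mouse lacking Xist counts it was -1.354 (adjusted p = 0.0059 in edgeR). Groups without overlap and with C57BL/6J above were found for 1.19% of genes in anterior libraries and 1.36% in posterior ones.

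In enriched housing the Ide values of the strains overlapped. The 2 anterior C57BL/6J libraries had 47.7 CPM for mouse 1 and 25.9 CPM for mouse 3. The B6D2F1N libraries had 35.3, 59.5, 55.3, 17.7 and 24.4 CPM, so that 2 of the hybrids were above both C57BL/6J libraries. Their log2 difference was 0.08 (95% interval -0.93 to 1.10, edgeR adjusted p = 1.00). In the posterior portion C57BL/6J mice 1 to 4 had 40.1, 53.6, 14.9 and 41.3 CPM. The 6 B6D2F1N mice ranged from 21.4 to 40.7 CPM with a median of 26.9. Mouse 3 of the C57BL/6J group was thus the lower or lowest of its group in both portions, with 517 and 347 counts, and in the posterior portion it was below all hybrids. Here the log2 difference was -0.35 (95% interval -0.996 to 0.29, edgeR adjusted p = 0.813). Leaving out 1 mouse moved the posterior value between -0.63 without mouse 3 (adjusted p = 0.491) and -0.11 without C57BL/6J mouse 2 (adjusted p = 0.966).

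**Figure D3:**
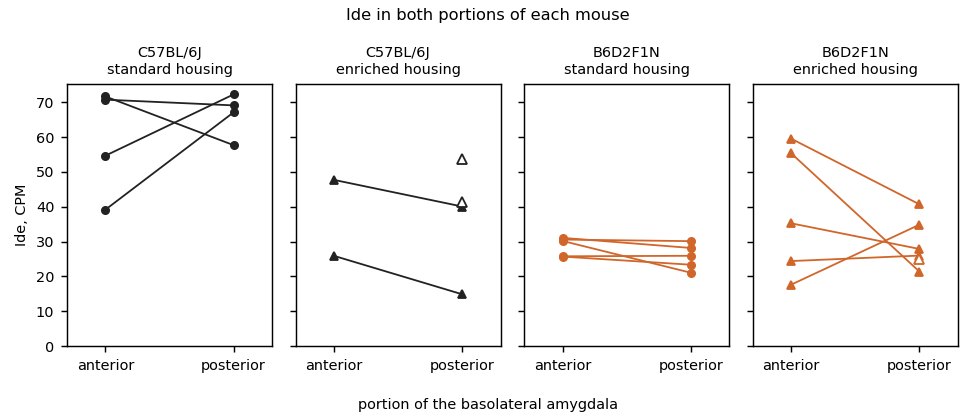
Ide level in CPM (y axis) in the anterior and posterior portion (x axis) of each mouse, by strain and housing; lines join the portions of 1 mouse and open symbols are mice with the posterior portion alone. Standard C57BL/6J mice lie at 39.2 to 72.2 CPM and standard B6D2F1N mice at 21.1 to 31.1 CPM, while the enriched mice of both strains spread over 14.9 to 59.5 CPM.

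The change of the Ide strain difference with housing was tested as an interaction. It was 1.10 on the log2 scale in the anterior (95% interval 0.07 to 2.13, unadjusted p = 0.0371 in edgeR, adjusted p = 0.831) and 1.02 in the posterior portion (95% interval 0.26 to 1.78, unadjusted p = 0.0111 in edgeR, adjusted p = 0.491). Neither passed the test over all genes, so it is not shown that the strains differed less in enriched housing. For this interaction edgeR called 0 genes in either portion, with 1576 and 2335 genes at an unadjusted p below 0.05, and DESeq2 called 11 and 37. With both housings in 1 fit the strain difference of Ide was -0.63 in the anterior (adjusted p = 0.568) and -0.85 in the posterior portion (adjusted p = 0.0535). The posterior value was called with DESeq2 (adjusted p = 0.00967), with no minimum count (adjusted p = 0.0392), and without C57BL/6J enriched mouse 3 (-1.02, adjusted p = 0.00062), B6D2F1N enriched mouse 2 (-0.93, adjusted p = 0.0183) or mouse 4 (-0.90, adjusted p = 0.0392). Without the mouse lacking Xist counts it was -0.83 (adjusted p = 0.0961).

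Within C57BL/6J mice, Ide averaged 66.5 ± 6.27 CPM (SD, n = 4) in standard and 37.5 ± 16.25 CPM (n = 4) in enriched housing in the posterior portion. The log2 fold change, enriched minus standard, was -0.82 (95% interval -1.49 to -0.16, unadjusted p = 0.018 in edgeR, adjusted p = 0.443). In the anterior portion the means were 59.05 ± 15.4 (n = 4) and 36.8 ± 15.4 CPM (n = 2), with a log2 fold change of -0.69 (adjusted p = 0.789). In the hybrids the means were 25.7 ± 3.63 (n = 5) and 29.3 ± 7.15 CPM (n = 6) in the posterior portion, with a log2 fold change of 0.17 (adjusted p = 0.999). Housing thus passed the test for Ide in neither strain. Oligodendrocyte markers moved with housing in the posterior C57BL/6J libraries: the summed level of 6 genes ranged from 8009 to 12536 CPM in standard and from 17825 to 27905 CPM in enriched mice. In the anterior portion the ranges were 7930 to 10712 and 10086 to 24304 CPM. Their part in the Ide values was not tested. Of those 6, the myelin gene Mbp alone, named after its values were seen, was called between the housings, at 1.97 on the log2 scale (adjusted p = 0.0366).

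Fgfbp3 lies 349.1 kb from Ide and had far fewer counts, 0 to 181 per library. Its levels overlapped between the strains in all 4 comparisons. In the standard posterior portion the C57BL/6J mice had 2.69, 7.34, 0.74 and 2.97 CPM. The B6D2F1N mice had 2.01, 0.653, 2.17, 0.128 and 2.15 CPM. A single C57BL/6J mouse stood above the rest with 181 counts, and the lowest hybrid had 3 counts. For Fgfbp3 this gave -1.25 on the log2 scale with a 95% interval of -2.91 to 0.41 (edgeR adjusted p = 0.652). In the standard anterior portion it was -0.35 (95% interval -1.61 to 0.91), and in enriched housing it was -1.23 (95% interval -4.12 to 1.66) in the anterior and -0.74 (95% interval -1.97 to 0.48) in the posterior portion. All 4 values were below 0, the direction of Ide in standard housing, but none was called and each interval held 0. Over both housings the posterior value was -0.9996 (95% interval -1.995 to -0.0048, unadjusted p = 0.049 in edgeR, adjusted p = 0.451). Single mice moved the standard-housing log2 values. With 1 mouse left out, the posterior value ranged from -1.58 to -0.56, the latter without the C57BL/6J mouse with 181 counts, and was -1.40 without the mouse lacking Xist counts. The anterior value ranged from -0.82, without the mouse lacking Xist counts, to -0.12.

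Between Fgfbp3 and Ide lie 3 protein-coding genes, and none of them shared the strain difference of Ide. They are Btaf1, which removes TBP from DNA, Cpeb3, a regulator of synaptic translation, and March5, a mitochondrial ubiquitin ligase. In the standard posterior portion the log2 fold change was 0.04 for Btaf1 (95% interval -0.55 to 0.63), 0.27 for Cpeb3 (95% interval -0.25 to 0.79) and 0.01 for March5 (95% interval -0.55 to 0.57). For all 3 the interval excluded the Ide value of -1.36. In the standard anterior portion their values lay between -0.11 and 0.13, with intervals that excluded the Ide value of -1.04. Of 5 or 6 genes tested in this interval, depending on the comparison, 0 were called. Among the 13 to 15 tested genes within 500 kb of Fgfbp3 or Ide, no gene other than Ide itself was called in a standard-housing comparison. Over all genes 0.370% and 0.373% were called there, so these counts alone are no result about the neighbours.

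**Figure D4:**
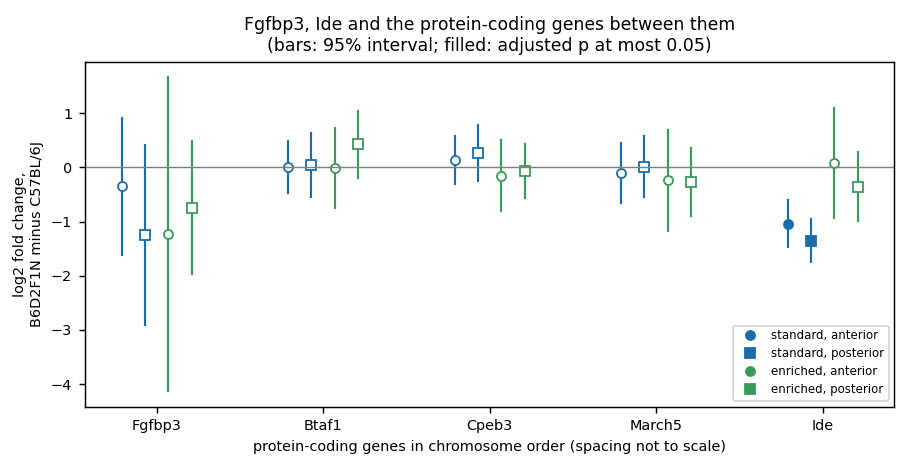
Strain difference on the log2 scale (y axis) with its 95% interval for Fgfbp3, Ide and the 3 protein-coding genes between them in chromosome order (x axis). The points of Btaf1, Cpeb3 and March5 lie between -0.27 and 0.42 and none is called, while Ide is called at -1.04 and -1.36 in standard housing.

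Nnt was detected in every library at 14 to 155 counts and no strain difference of it passed the test. In the standard anterior portion the C57BL/6J mice had 2.78, 1.57, 2.88 and 2.07 CPM. The B6D2F1N mice had 1.36, 2.28, 1.46, 1.52 and 3.18 CPM, spanning the C57BL/6J range. In the standard posterior portion the C57BL/6J mice had 3.10, 2.76, 3.58 and 3.16 CPM. The B6D2F1N mice had 4.08, 1.96, 1.52, 0.983 and 2.02 CPM, so 4 of 5 hybrids were below all C57BL/6J mice and mouse 1, the mouse without Xist counts, was above them. The log2 fold changes were -0.25 (95% interval -1.44 to 0.94) and -0.57 (95% interval -1.67 to 0.54). In enriched housing they had the opposite sign, 0.32 (95% interval -1.51 to 2.16) in the anterior and 0.58 (95% interval -0.62 to 1.78) in the posterior portion. None was called, and each interval held 0. With 1 mouse left out, the standard anterior value ranged from -0.49 to -0.12 and was -0.13 without the mouse lacking Xist counts. The standard posterior value ranged from -0.94, without that mouse, to -0.38.

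In the hybrids Nnt averaged 3.945 ± 2.005 CPM (SD, n = 6) in enriched and 2.11 ± 1.18 CPM (n = 5) in standard posterior libraries. The log2 fold change was 0.89 with a 95% interval of -0.16 to 1.93 (edgeR adjusted p = 0.822), and in the anterior portion it was 0.79 (95% interval -0.42 to 2.00, adjusted p = 1.00). In C57BL/6J mice it was 0.22 in the anterior and -0.24 in the posterior portion, neither called. The change of the Nnt strain difference with housing was 0.55 and 1.14 in the 2 portions, with intervals that held 0. Over both housings the strain values were -0.03 (95% interval -0.92 to 0.86) and 0.00 (95% interval -0.90 to 0.91).

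A neighbour of Nnt did separate the strains. Tmem267, a transmembrane protein gene at chr13:119488039-119611059 and 79.0 kb from Nnt, was the only one of 14 tested genes within 500 kb that was called over both housings in each portion. Over all genes 0.615% and 0.858% were called in those anterior and posterior fits. Tmem267 is named here after its values were seen. In the standard anterior portion C57BL/6J mice had 23.5 to 53.9 CPM and hybrids 6.43 to 14.6 CPM. In the posterior portion of the same housing the ranges were 18.3 to 40.1 and 6.36 to 15.6 CPM. The strains were thus apart in both, with C57BL/6J higher, as for 1.19% and 1.36% of all genes. In enriched housing Tmem267 was called in the posterior portion (-1.96, adjusted p = 0.00417 in edgeR) but not in the anterior one (-1.505, adjusted p = 0.9999 in edgeR). Over both housings it was at -1.63 in anterior (SE 0.27, adjusted p = 0.00157 in edgeR) and -1.80 in posterior libraries (SE 0.22, adjusted p = 9.2e-06) on the log2 scale. The median of the 14 genes was -0.62 and -0.33, beside 0.00 and 0.02 for all genes.

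Cyfip2 had the highest level of the members per length of exon, and it was called between the portions of the amygdala and in no strain comparison. Strain values of the log2 fold change in standard housing were 0.21 (95% interval -0.16 to 0.59) in the anterior and 0.46 (95% interval -0.01 to 0.92, unadjusted p = 0.0526 in edgeR, adjusted p = 0.485) in the posterior portion. In enriched housing they were 0.23 (95% interval -0.35 to 0.81) and -0.33 (95% interval -0.88 to 0.22), the latter between -0.49 and -0.014 with 1 mouse left out. In all 4 comparisons the strains overlapped. The difference between the housings in the strain effect was -0.78 in the posterior portion (95% interval -1.49 to -0.06, unadjusted p = 0.0342 in edgeR, adjusted p = 0.552), and it was -0.00028 in the anterior portion (95% interval -0.59 to 0.59).

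Between the portions, Cyfip2 was lower in the portion labelled posterior in 5 of 6 C57BL/6J and 9 of 10 B6D2F1N mice. In C57BL/6J mice in standard housing it was 429, 347, 360.4 and 374 CPM in the anterior portion. In the posterior portion of the same mice it was 195, 185, 241 and 267 CPM. The exception was mouse 1 of the enriched group, which went from 375 CPM up to 464 CPM, and enriched mouse 3 had 454 and 203 CPM. With the mouse as a block, the posterior minus anterior log2 value was -0.66 (SE 0.18, adjusted p = 0.0487 in edgeR) in a fit that called 3.64% of all genes. This call held without enriched mouse 1 (-0.84, adjusted p = 0.00483). It was lost without any of the other 5 mice, standard mice 1 to 4 and enriched mouse 3, with values from -0.70 to -0.55 and adjusted p from 0.11 to 0.241, and without the block (-0.59, adjusted p = 0.143).

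In B6D2F1N mice in standard housing the anterior values were 492, 489, 352, 490.4 and 362 CPM. The posterior values of the same mice were 232, 369, 374, 274 and 261 CPM, higher than the anterior one in mouse 3 alone. The 5 enriched hybrids with both portions had 414.5 to 602 CPM in anterior and 158 to 329 CPM in posterior libraries. Posterior minus anterior, the log2 value was -0.80 (SE 0.14, adjusted p = 0.00313 in edgeR) beside 4.00% of all genes called, and it held without each of the 10 mice in turn, with adjusted p from 0.000983 to 0.0116. The median of all genes in this comparison was 0.15, so relative to it the value was larger in size. A difference of this portion effect between the strains was not called, at -0.14 (95% interval -0.62 to 0.35, edgeR adjusted p = 1.00).

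**Figure D5:**
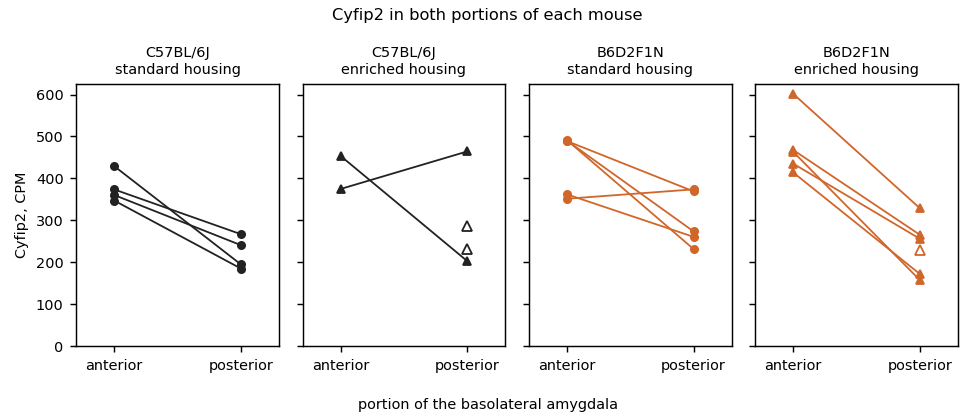
Cyfip2 level in CPM (y axis) in the anterior and posterior portion (x axis) of each mouse, by strain and housing; lines join the portions of 1 mouse and open symbols are mice with the posterior portion alone. The lines descend in 14 of 16 mice, with the exceptions of C57BL/6J enriched mouse 1 and B6D2F1N standard mouse 3.

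Cell type markers moved with this difference. The summed level of 6 excitatory neuron markers ranged from 2963 to 3763 CPM in anterior and from 1188 to 2889 CPM in posterior libraries of standard C57BL/6J mice. In enriched B6D2F1N mice it ranged from 2793 to 4381 and from 1087 to 2548 CPM. These groups were apart, but the ranges of the portions overlapped in enriched C57BL/6J mice, at 2425 to 4506 and 1461 to 5552 CPM, and in standard B6D2F1N mice, at 1833 to 4132 and 2393 to 2950 CPM. The cortical markers Slc17a7, Neurod6 and Tbr1 were called lower in the posterior portion in both strains (named after their values were seen), Tbr1 at -2.25 and -2.38 on the log2 scale, and Slc17a6, the transporter of subcortical glutamatergic neurons, was called higher. Among 6 astrocyte markers, Gfap was called higher in the posterior portion in both strains (1.38 and 1.93), Slc1a3 (0.61) and Gja1 (0.73) higher in C57BL/6J mice, and Slc1a2 lower in B6D2F1N mice (-0.66). Among 6 inhibitory neuron markers, Vip was called lower in both strains (-0.96 and -0.87) and Pvalb lower in C57BL/6J mice (-1.42). Of 6 microglia markers Aif1 was called lower in B6D2F1N mice (-0.90), and 0 of 6 oligodendrocyte and 0 of 6 endothelial markers were called. Their part in the Cyfip2 difference was not tested. The antisense neighbour Fndc9 had mean levels of 9.08 to 14.8 CPM in the 4 anterior groups and 52.2 to 71.9 CPM in the 4 posterior groups, the opposite order to Cyfip2. Reads of the pair cannot be told apart where they overlap without the strand. Of 20 and 18 genes tested within 500 kb of Cyfip2 in the anterior and posterior portions, 1 was called between the strains over both housings. In those fits 0.615% and 0.858% of all genes were called. The called neighbour was Gm12166, 141.5 kb away, higher in B6D2F1N at 1.61 (edgeR adjusted p = 0.0415) and 1.55 (edgeR adjusted p = 0.00467) on the log2 scale.

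None of the other members was called between the portions. Wdfy1 was higher in the posterior portion in 5 of 6 C57BL/6J mice, at 0.42 on the log2 scale (95% interval 0.01 to 0.82, edgeR adjusted p = 0.351), and in 6 of 10 hybrids, at 0.10. Ide was at -0.03 and -0.20, Nnt at 0.47 and 0.06, and Fgfbp3 at -0.20 and -0.02 in C57BL/6J mice and hybrids. No strain difference of a member depended on the portion by the test, in a fit where edgeR called 0 genes, with 871 at an unadjusted p below 0.05, and DESeq2 called 6. Housing was called for 0 of 5 members in each strain and portion. In those housing fits edgeR called 0 genes, apart from 4 genes (0.0163%) in the posterior C57BL/6J portion, with 1418 to 2515 genes at an unadjusted p below 0.05. DESeq2 called 8 to 319.

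The genes that work with the members were taken from lists chosen by function. None of the 18 genes listed for mitochondrial NADPH, the product of Nnt, and peroxide defence was called in any of the 6 strain comparisons. Their median log2 fold change over both housings was 0.04 in the anterior and 0.01 in the posterior portion. The same count, 0, was found for 13 tested genes listed for amyloid- and peptide-degrading proteases, the field of Ide, and for 10 genes of insulin and IGF signalling. The protease list also holds App, the amyloid precursor, which is not a protease. The medians over both housings were -0.09 and 0.05 for the protease list and 0.10 and 0.15 for the insulin genes, beside 0.00 and 0.02 for all genes. Of 16 FGF ligands, receptors and binding proteins, 15 FYVE-domain and early endosome genes, 11 genes of TLR3 and TLR4 signalling and 16 genes of the WAVE complex and its partners, 0 were called in any strain comparison. Over all genes 0.0639% to 0.858% were called in these comparisons, so a count of 0 in lists of this size is no result about them.

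Among 11 tested ectonucleotidases and related enzymes, the family of Entpd4, 1 gene was called over both housings, in the posterior portion. Over all lists this was 1 of 110 tested genes, 0.909%, beside 0.858% of all genes, so the count is no result about the family. The gene is named here after its values were seen. No anterior or single-housing strain comparison called it. Entpd1, the ectonucleotidase CD39 that breaks down extracellular ATP on microglia and vessels, was lower in the hybrids in the posterior portion, at -0.60 on the log2 scale (SE 0.14, adjusted p = 0.0349 in edgeR). Posterior levels in standard housing were 35.1 to 55.9 CPM in C57BL/6J and 24.0 to 31.8 CPM in B6D2F1N mice. These ranges did not overlap, as for 1.36% of all genes with C57BL/6J above. In enriched housing they were 28.4 to 53.0 and 24.4 to 38.0 CPM, with overlap. The summed levels of 6 microglia markers overlapped between the strains in the posterior portion, at 424 to 533 CPM in standard C57BL/6J and 285 to 475 CPM in standard B6D2F1N mice. Those of 6 endothelial markers were 429 to 542.5 and 203 to 474 CPM. Their part in the Entpd1 difference was not tested.

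Between the portions, 2 of 110 tested list genes were called in C57BL/6J and 4 in B6D2F1N mice, no larger shares than the 3.64% and 4.00% over all genes. The genes are named here after their values were seen. App, the amyloid precursor, was lower in the posterior portion in both strains, at -0.57 in C57BL/6J (adjusted p = 0.0309) and -0.74 in B6D2F1N mice (adjusted p = 0.0058). In the hybrids the endothelin-converting protease Ece2 was higher at 1.23, and cathepsin B (Ctsb) and the mitochondrial malic enzyme Me3 were lower at -0.48 and -0.64. In C57BL/6J mice the ectonucleotidase Entpd2 was higher at 1.15 (adjusted p = 0.046). Of the 16 genes of the WAVE list, 0 were called between the portions in either strain.

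Compared per length of exon, taken as all annotated exons of a gene together, the members covered a wide range over the 35 libraries. These came from 19 mice, and each SD here is over libraries and includes the differences between the groups pooled. Cyfip2 had 47.9 ± 15.8 CPM per kb (SD, n = 35), Wdfy1 9.91 ± 4.39, Ide 5.199 ± 2.31, Fgfbp3 1.297 ± 0.85 and Nnt 0.403 ± 0.192. In C57BL/6J mice Wdfy1 had 5.19 ± 1.13 and Ide 6.91 ± 2.40 CPM per kb (n = 14), with ranges that overlapped. Ide had the higher mean in standard housing, at 7.87 and 8.86 against 4.07 and 6.31 CPM per kb in anterior and posterior libraries, but not in enriched housing, at 4.90 and 4.99 against 5.29 and 5.14. In the hybrids Wdfy1 had 13.1 ± 2.42 and Ide 4.06 ± 1.39 CPM per kb (n = 21). The genes most like each member across the 35 libraries, by Pearson r of log2 CPM among 16022 genes with a mean of at least 1 CPM, were Glns-ps1 (0.92) and Gm13443 (0.92) for Wdfy1 and Adcy1 (0.91) for Cyfip2. For Ide they were Rtraf (0.69) and Srp9 (0.66), for Fgfbp3 Stom (0.68) and Sypl (0.67), and for Nnt Usp53 (0.58) and Flvcr2 (0.55). The libraries share mice, strain and portion, so these values only describe the patterns. Between members r was -0.58 for Ide and Wdfy1 and 0.23 for Ide and Fgfbp3, the pair on chromosome 19.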

How the data were processed

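RNA from laser-captured anterior and posterior basolateral amygdala was sequenced as 72-base single reads after polyA selection and low-input amplification. Per the labels and the study's methods, the authors used Trimmomatic 0.38 for trimming and HISAT2 2.1.0 for alignment to GRCm38, and deposited raw counts per gene made with HTSeq 0.11.2. The annotation release and strand setting of the counting are not given in the sources used here. Reads placed more than once went to no gene, which lowers genes with near-identical copies.

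Groups came from the sample labels, and portion names are used as the labels give them, although the bregma coordinates in the study's methods run in the opposite order. Genes with at least 10 counts over the libraries of a fit were tested with edgeR 4.0.16 (TMM normalization, quasi-likelihood test) in R 4.3.3, with Benjamini-Hochberg adjustment over all genes tested and a threshold of 0.05. Strain and housing were compared within a portion. Portions were compared within mice, with the mouse as a block, because the labels tie both portions to 1 animal. Over the 16 mice with both portions, the correlation between the portions' deviations from their group means ranged from -0.118 to 0.214 with a median of 0.0632. CPM used TMM-scaled library sizes, with factors from 0.811 to 1.23, except in the limit of 3 counts, which used raw library totals. Likeness used log2(CPM + 0.5). DESeq2 1.42.0, other filters, other fits and leaving out each mouse were alternatives. P-values measure the spread between mice of these groups, taken as independent. The paper kept the mice in same-strain cages and gave playground access by cage. Cages were not modelled, so an effect of the cage cannot be told apart from one of strain or housing. The 95% intervals of log2 differences come from the same fits and carry that spread. The limit of 3 counts for a count of 0 covers counting error only, since reads without molecular identifiers are not independent molecules. The scripts were tested on simulated counts.

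The members and gene lists were chosen with earlier results of these data known. Named beside the members were list genes and genes within 500 kb called between the strains over both housings, genes between Fgfbp3 and Ide, genes sharing 72-base windows with a member, and the 2 genes most like each member, of which 1 is not reported here. Of the 52636 gene identifiers, 52489 were found in GENCODE M21.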

Additional observations from a re-analysis of the deposited data

Results flagged for a closer look

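Of 35 sets examined, each a member in a group of 4 to 6 libraries, 1 held a library far from the rest by Dixon's criterion, which flags about 1 set in 20 by chance. It was Cyfip2 in the anterior portion of enriched B6D2F1N mice, where mouse 6 had 602 CPM and the next highest mouse 468.1 CPM, a gap of 0.714 of the whole range.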

How the results depend on the processing

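Of the members' values, 364 kept their direction and side of the threshold under the other settings and 705 with 1 mouse left out; 8 and 52 changed sign, 5 and 20 lost a call, and 3 and 3 gained one. DESeq2 called more genes. Between the strains it called 254 and 392 in standard housing, 137 and 342 in enriched housing, and 358 and 532 over both, in the anterior and posterior portions. It called 11 and 37 for strain by housing, 6 for strain by portion, 1535 in C57BL/6J and 1994 in B6D2F1N mice between portions, and between housings 100 and 319 in C57BL/6J and 8 and 13 in B6D2F1N mice. Members called with it were 1 in the enriched anterior portion and 2 over both housings in the posterior portion, the latter also with no minimum count. With no minimum count, 57 genes were called in the enriched anterior portion, 2 for strain by portion, and 274 and 112 between C57BL/6J housings. With 1 fit for the 4 groups of a portion, 44 genes were called in the enriched anterior portion, 0 between posterior C57BL/6J housings, and 1 member in the standard anterior portion.

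With only mice that gave both portions, the enriched posterior comparison called 35 genes and 0 members, with Ide at 0.17, and the posterior C57BL/6J housing comparison called 0 genes, with Nnt at 0.23. Nnt over both housings was then -0.31. This setting leaves the anterior and standard posterior comparisons as they were, since every mouse in them had both portions. Cyfip2 for strain by housing in the anterior portion was 0.026 with DESeq2 (0.02641) and its size factors (0.02639). Without the replicate block the portion comparison in C57BL/6J mice called 0 members, with Fgfbp3 at 0.0209 and Ide at 0.0519, and Fgfbp3 for strain by portion was -0.25; the block changed no call of a member in B6D2F1N mice. The C57BL/6J portion comparison also called 0 members with DESeq2 size factors (Cyfip2 adjusted p = 0.0544) and with filterByExpr (0.0788). The causes of these changes were not tested.

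With 1 mouse left out, members called ranged from 1 to 2 in the standard anterior, standard posterior and both-housings posterior comparisons and from 0 to 1 between C57BL/6J portions. Genes called ranged from 60 to 83 in the standard anterior, 59 to 166 in the standard posterior, 1 to 15 in the enriched anterior and 68 to 86 in the enriched posterior comparison, 0 to 14 for posterior strain by housing, 602 to 1070 between C57BL/6J portions, and between posterior housings 0 to 172 (C57BL/6J) and 0 to 10 (B6D2F1N). The 166 came without the mouse lacking Xist counts and the 172 without C57BL/6J enriched mouse 3. Signs changed within these ranges. Between the strains they were -0.32 to 0.61 for Ide and -0.19 to 1.08 for Nnt in the enriched anterior portion, -0.23 to 0.0666 for Nnt over both housings in the anterior, and -0.20 to 0.14 for Nnt and -0.0339 to 0.22 for Cyfip2 over both housings in the posterior portion. Strain by housing ranged from -0.12 to 0.12 for anterior Cyfip2 and -0.20 to 0.84 for posterior Fgfbp3. Between portions they were -0.47 to 0.22 for Fgfbp3 and -0.20 to 0.12 for Ide in C57BL/6J, and -0.34 to 0.30 for Fgfbp3 and -0.0879 to 0.15 for Nnt in B6D2F1N mice. Between C57BL/6J housings they were -0.0521 to 0.59 for Fgfbp3 and -0.53 to 0.74 for Nnt in the anterior, and -0.64 to 0.36 for Fgfbp3 and -0.71 to 0.0787 for Nnt in the posterior portion. In B6D2F1N mice they were -0.22 to 0.0102 for anterior Wdfy1, -0.12 to 0.38 for posterior Fgfbp3 and -0.15 to 0.0027 for posterior Wdfy1. Leaving out each mouse was not run for strain by portion. Nnt and Fgfbp3 had at most 155 and 181 counts per library, and whether depth or the spread between mice limits their values was not tested.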
